A study of Mus musculus with 1 sample.

Results

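The 443 cells described here are those of 1 single-cell RNA-seq library that carried transcripts of a small set of monocyte genes, named Fn1, Tgfbi, Trem2, Csf1r and S100a4. They were 443 of the 7645 cells that passed the study's cell filter (5.79%, exact 95% interval 5.28 to 6.34), out of 8817 barcodes deposited. A cell was selected when at least 3 of these 5 genes had 1 or more unique molecular identifiers (UMIs, 1 for each captured transcript molecule), when it had 0 UMIs of Flt3, H2-Aa and Prss34, which mark early, dendritic and basophil cells, and when it had fewer than 3 UMIs of Cebpe, a neutrophil factor. The selection therefore used measured values, and the levels of those genes in the selected cells are a description of the rule and no finding. They were compared with 1609 contrast cells, which had at least 1 UMI of F13a1 and none of Fn1, Tgfbi or Trem2. F13a1 encodes a coagulation factor chain that monocytes and their progenitors make.

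The library came from Lineage- cKit+ bone marrow cells of femora and tibiae of mice of the C57BL/6 strain with the genotype Brd9fl/fl, in which Brd9, a subunit of a SWI/SNF chromatin remodelling complex, is flanked by loxP sites and no Cre recombinase is named. The mice had been given 3 doses of pIpC (polyinosinic-polycytidylic acid, an inducer of interferon) at 20 mg/kg and were sampled 8 weeks later, so pIpC is shared by all cells compared. The sample's labels name a transplant with a CD45.2(+) donor and a CD45.1(+) recipient and a bulk RNA kit, whereas the series text describes primary mice injected 4 weeks after birth, and the study's methods a 10x Chromium 3' library, the form the deposited counts have. Which of these applies was not settled, and the Brd9-deleted library is not analysed here.

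Nothing was tested, since the only library has no replicate. Levels are in CPM, the summed UMIs of a gene over a group of cells per 1000000 UMIs of that group. Exact Poisson intervals accompany levels, exact conditional binomial intervals accompany ratios of levels, and exact Clopper-Pearson intervals accompany shares of cells, all at 95%. They hold counting error alone. How mice, sorts or libraries differ is outside them, and cells of the library are not replicates of a condition.

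Monocytes arise in bone marrow from Kit-expressing myeloid progenitors. As they form, they lose stem cell genes, reduce the serine proteases and myeloperoxidase that fill the primary granules of their progenitors and of neutrophils, and gain lysosomal enzymes, chemokine and Fc receptors, and motility genes. Classical mouse monocytes carry the surface antigen Ly6C, encoded by Ly6c2, and the chemokine receptor CCR2, through which they leave the marrow. The factors Irf8 and Klf4 are known to act in this step, and Csf1r is the receptor for the growth factor CSF1.

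The selected cells were as deep as the cells they were compared with. Their median was 21073 UMIs (range 5151 to 49916) and 4395 genes, the contrast cells had 21835 UMIs and 4375 genes, and the median mitochondrial shares were 3.11% and 3.14%. A doublet caller marked 16 of the selected cells (3.61%, interval 2.08 to 5.80) and 87 of the contrast cells (5.41%, interval 4.35 to 6.63), against 3.47% of all cells kept. All of the selected cells held at least 5000 UMIs, so that none was lost when each cell was thinned at random to 5000 UMIs for comparisons of cells with one another.

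The contrast group was mixed, and its rule has no exclusions. It held transcripts of the basophil protease gene Mcpt8 at 179 CPM, of the neutrophil gene S100a8 at 267 CPM, of Cd74, which marks dendritic and B cells, at 59.2 CPM and of the red cell gene Car1 at 331 CPM. In 625 of the contrast cells the exclusions on Flt3, H2-Aa, Prss34 and Cebpe were also met, and Mcpt8 stood at 34.4, S100a8 at 79.2, Cd74 at 2.57 and Car1 at 472 CPM there. Mcpt8, S100a8 and Cd74 were thus lower there, while Car1 was higher, so these cells were mixed as well. Values against these 625 cells are given beside the main ones, under the name contrast cells with exclusions.

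Of the genes that selected the cells, Fn1, encoding the matrix protein fibronectin, was the least often seen. It had a UMI in 29.1% of the selected cells (interval 24.9 to 33.6), or 13.3% after thinning, and stood at 34.1 CPM. Tgfbi, a secreted matrix protein induced by TGF-beta, was seen in 72.7% and stood at 72.5 CPM. The lipid-sensing receptor gene Trem2 was seen in 86.7%, Csf1r in 91.9% and S100a4, a calcium-binding protein of motile cells, in 92.1%. In erythroid cells, taken as a group that should lack these genes (1598 cells, 182 of them also contrast cells, median depth 29898 UMIs), Fn1 was seen in 1.13%, Tgfbi in 3.5%, Trem2 in 2.94%, Csf1r in 6.38% and S100a4 in 8.01%. Both Fn1 and Tgfbi were seen in 94 of the selected cells (21.2%, interval 17.5 to 25.3), and neither of them in 86 (19.4%, interval 15.8 to 23.4), which had been selected on Trem2, Csf1r and S100a4. A description of these cells as having Fn1 and Tgfbi thus holds for a minority, and they are called by their rule here. S100a4 overlaps the gene model Gm42674 on the same strand, so its count is uncertain to that extent.

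Just inside the rule, 191 cells had exactly 3 of the 5 genes, and just outside it 294 cells had exactly 2 and met the exclusions. Lyz2 stood at 834 CPM in the former and 353 CPM in the latter, Lgals3 at 260.4 and 88.8, Klf4 at 163 and 79.6, and Elane at 3434 and 3724. The threshold cuts through a range of levels. The exclusions took out 333 of the 776 cells with 3 or more of the genes, Flt3 touching 199 of them, Prss34 126, H2-Aa 77 and Cebpe 12. Prss34 was the only exclusion failed by 80 cells, 66 of which held exactly 1 Prss34 UMI and none more than 3. In these 80 cells Lyz2 stood at 1596 CPM and Mcpt8 at 8.36 CPM, values near those of the selected cells (1547 and 9.66 CPM).

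Whether the cells carry markers of the monocyte lineage that the rule did not use was asked next. Lyz2, the lysozyme gene of macrophages, monocytes and neutrophils, stood at 1547 CPM (interval 1522 to 1572) in the selected cells, 152 in the contrast cells and 34.7 in erythroid cells. After thinning, 89.8% of the selected cells had a Lyz2 UMI, against 47.3% of the contrast cells and 14.2% of the erythroid cells. Ly6c2 stood at 1876 CPM (interval 1849 to 1903) against 649.9 in the contrast cells, and was seen in 98.2% of the thinned selected cells and 13% of the erythroid ones. F13a1, which the rule for the selected cells did not ask for, had a UMI in 438 of the 443 cells. Genes of mature monocytes and macrophages were scarce. Cd14, the lipopolysaccharide co-receptor, stood at 12.8 CPM and Itgam, the CD11b chain that the lineage depletion targets, at 9.66 CPM. The Fc receptor gene Fcgr1 stood at 0.616 CPM, Clec4a1 at 0.822, Clec4a3 at 2.47 and the matrix gene Vcan at 0.103. The macrophage genes C1qa, C1qb, C1qc, Mertk, Timd4 and Cd5l had 0 UMIs of 9732541, and 3 UMIs would be 0.308 CPM. The word later is thus relative to the contrast cells, and no time course was measured. Ly6c2 and Ly6c1 are close copies, and Ly6c1 had 3 UMIs in the selected cells.

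**Figure D1:**
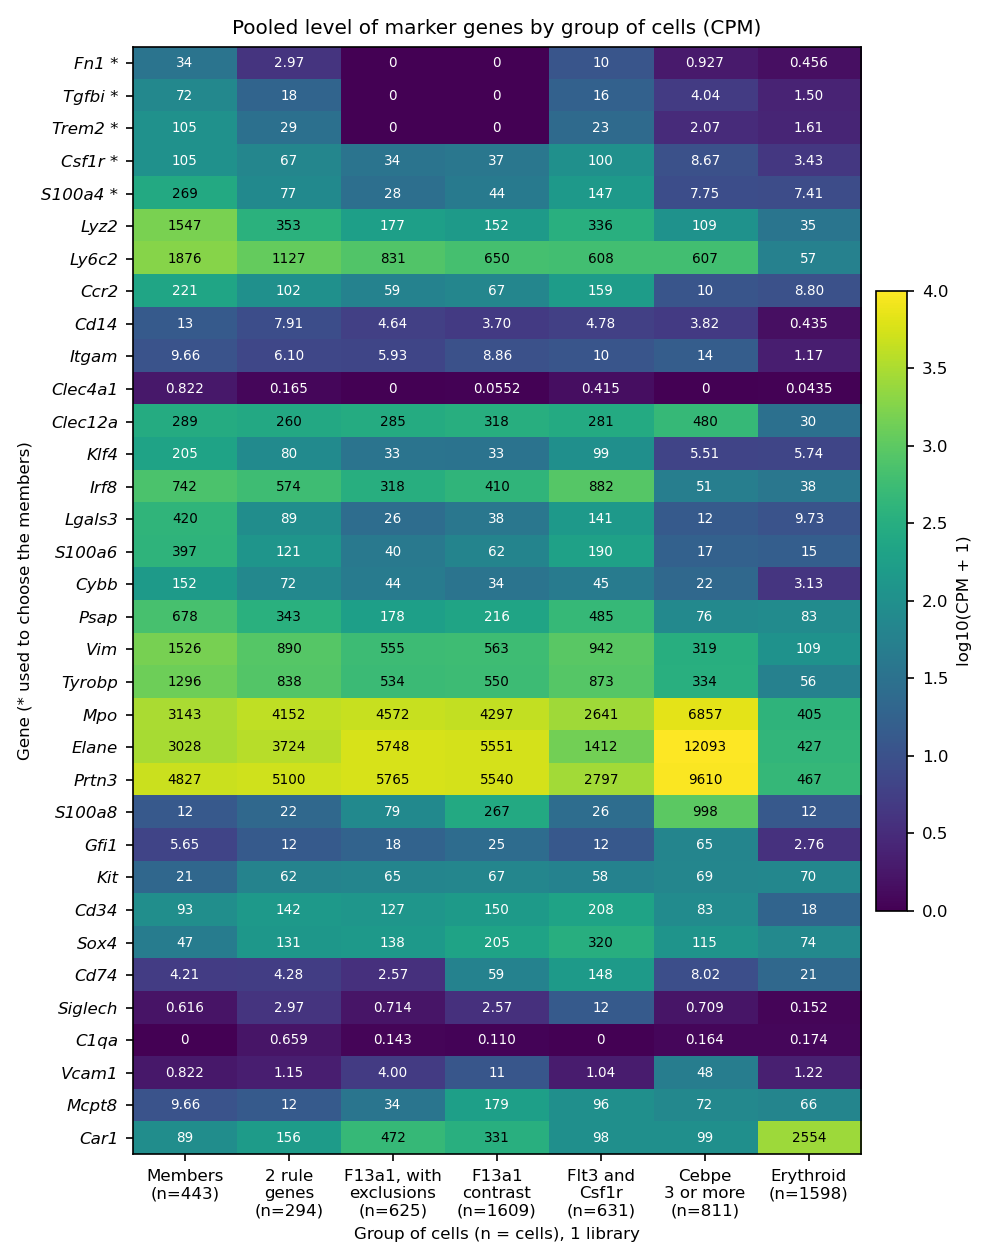
Pooled level in CPM, printed in each field and coloured as log10(CPM + 1), of 34 genes (rows, asterisks for genes used to select the cells) in 7 groups of cells of 1 library (columns). Lyz2, Ly6c2, Lgals3, S100a6, Klf4 and Vim are highest in the selected cells (Members), while Elane, Mpo and S100a8 are highest in the Cebpe cells and the macrophage gene C1qa is near 0 in every group.

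Over all 10315 genes with at least 100 UMIs in the selected and contrast cells together, and without the 10 genes of the rules, 245 (2.38%) were at 2-fold or more in the selected cells and 444 (4.30%) lower by 2-fold or more, with 1 CPM added to both levels. Against the 625 contrast cells with exclusions, 285 of 9185 genes (3.10%) were higher and 261 (2.84%) lower by the same measure. Of the 245 genes, 223 were also at 2-fold or more against the contrast cells with exclusions and 0 were lower by 2-fold or more, and of the 444 lower genes 333 were still lower by 2-fold or more and 4 were higher by as much. The median log2 ratio over all genes was -0.05 and -0.02. Because the cells were chosen on genes that go together with many others, these counts describe the selected cells and are the background for the lists below.

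Among genes at 100 CPM or more in the higher group, the highest ratio was that of Lgals3. Lgals3, encoding galectin-3, a sugar-binding protein of phagocytes, stood at 419.9 CPM (interval 407 to 433) against 38.2, a ratio of 11 (interval 10.3 to 11.7). Lyz2 followed with a ratio of 10.2 (interval 9.86 to 10.5). S100a6, a calcium-binding protein, stood at 397 against 62.2 CPM (ratio 6.38, interval 6.06 to 6.72). Klf4, the zinc finger factor of monocyte formation, stood at 205 against 32.7 CPM (ratio 6.26, interval 5.82 to 6.73).

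The ratios for the others of the 12 highest lay between 3.30 and 4.91. They were Ahnak, a large membrane scaffold protein, C1galt1c1, the chaperone of an O-glycosylation enzyme, Cybb, the catalytic subunit of the phagocyte NADPH oxidase, Ifi30, a lysosomal thiol reductase, Pld4, an endolysosomal nuclease, the lysosomal protease gene Ctsh, the membrane-binding annexin gene Anxa2, and Ccr2. Against the contrast cells with exclusions the ratio was 16.1 for Lgals3, 9.86 for S100a6 and 9.73 for Ahnak, and for all 12 it stayed above 3. Ifi30 is the gene of these with the highest level in erythroid cells, 80.9 CPM, followed by Lyz2 with 34.7 CPM.

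The lowest ratio of such genes was that of S100a8. S100a8, a subunit of the neutrophil protein calprotectin, stood at 11.9 CPM (interval 9.85 to 14.3) against 267, a ratio of 0.0446 (interval 0.0368 to 0.0536). Mcpt8 stood at 9.66 against 179 CPM, and Cd63, a granule membrane protein, at 34.9 against 242 CPM. Sox4, a progenitor factor, stood at 46.9 against 205 CPM, Nkg7 at 108 against 468, and the granule protease gene Prss57 at 41.9 against 169.5. Car1 and Car2, carbonic anhydrases of red cells, stood at 88.8 and 113 CPM against 331 and 371. Ptprcap, Nedd4, Rgcc and Ifitm1 completed the set, and Ptprcap overlaps Coro1b on the same strand. With exclusions the ratio was 0.15 for S100a8 and 0.281 for Mcpt8, and that of Ifitm1 was 0.541.

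**Figure D2:**
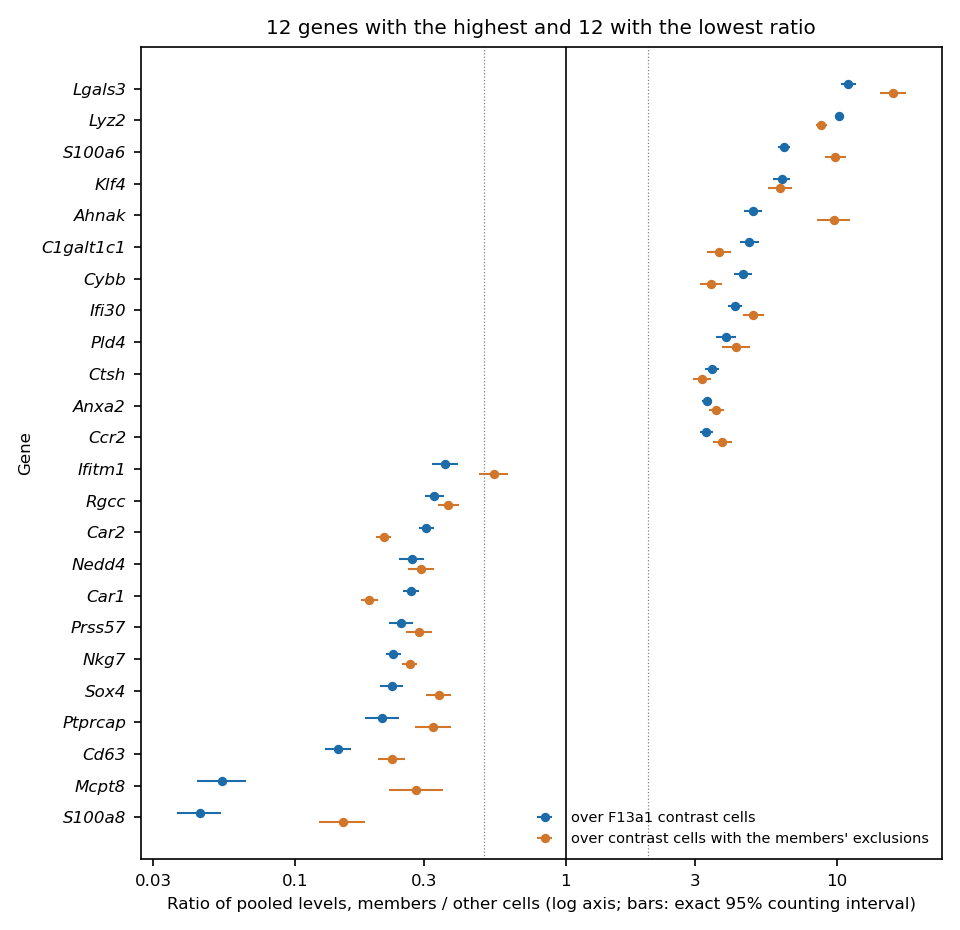
Ratio of the pooled level in the selected cells to that in other cells (log axis), with exact 95% counting intervals, for the 12 genes with the highest and the 12 with the lowest ratio. Blue points are against the contrast cells and orange points against those that meet the exclusions of the selected cells. The 12 upper genes lie above 3 in both, and S100a8 and Mcpt8 lie nearer to 1 with exclusions.

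The promoters of 4 genes are shown because their genes carry the description, Trem2 and Tgfbi among the genes of the rule and Lyz2 and S100a6 among the genes with the highest ratios outside it. The sequences are RefSeq's on build GRCm38.p6, read 5′ to 3′ on the gene's strand, and end at the first base before the annotated gene. Trem2 lies at chr17:48346151-48346400 on the plus strand, Tgfbi at chr13:56609336-56609522 on the plus strand, Lyz2 at chr10:117282322-117282522 on the minus strand and S100a6 at chr3:90612644-90612881 on the plus strand. Capitals mark the letters of 3 motifs searched on both strands in the 250 bases before each RefSeq start, which are GAGGAA, the core read by PU.1 (Spi1), TTGCNNAA, read by C/EBP factors, and TGANTCA, close to sites of AP-1 factors.
Trem2: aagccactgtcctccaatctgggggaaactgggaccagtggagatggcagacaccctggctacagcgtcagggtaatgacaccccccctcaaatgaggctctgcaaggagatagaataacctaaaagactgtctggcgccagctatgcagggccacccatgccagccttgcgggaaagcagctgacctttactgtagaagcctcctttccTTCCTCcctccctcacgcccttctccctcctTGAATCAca
Tgfbi: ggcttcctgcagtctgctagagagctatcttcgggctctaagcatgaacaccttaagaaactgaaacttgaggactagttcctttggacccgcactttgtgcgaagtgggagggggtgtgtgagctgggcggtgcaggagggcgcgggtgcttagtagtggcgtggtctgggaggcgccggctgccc
Lyz2: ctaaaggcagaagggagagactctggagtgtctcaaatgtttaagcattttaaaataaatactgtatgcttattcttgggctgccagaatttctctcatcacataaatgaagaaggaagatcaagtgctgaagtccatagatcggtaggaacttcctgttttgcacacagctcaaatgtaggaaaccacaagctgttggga
S100a6: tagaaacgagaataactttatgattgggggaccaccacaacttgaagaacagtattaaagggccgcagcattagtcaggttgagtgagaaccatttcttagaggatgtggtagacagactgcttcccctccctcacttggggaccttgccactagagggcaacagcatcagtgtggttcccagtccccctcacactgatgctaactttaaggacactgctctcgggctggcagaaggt

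Trem2 held GAGGAA on the opposite strand 40 bases before its start and TGANTCA 9 bases before it, and these do not overlap. None of the 3 motifs was found in the windows of Tgfbi, Lyz2 and S100a6. Among the 32851 windows of the table GAGGAA occurred in 23.3%, TTGCNNAA in 9.56% and TGANTCA in 6.75%. In the 196 windows that matched the 245 genes at 2-fold or more, the shares were 26.5%, 12.2% and 7.14%, beside 22.6%, 7.32% and 3.77% in the 8225 windows of all genes measured. These are matches of letters and not binding sites.

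Transcription factors of the monocyte lineage were described from a list of 16, of which 13 could be measured. Of these, 3 were at 2-fold or more (Klf4, Cebpb and Irf5) and 2 lower by 2-fold or more (Egr1 and Id2), with a median log2 ratio of 0.61 beside -0.05 over all genes. Cebpb, the C/EBP factor of late myeloid cells, stood at 265 CPM (interval 255 to 276) against 81.2. Irf5 stood at 42.9 CPM (interval 38.9 to 47.3) against 10.6. Irf8 stood at 742 CPM against 409.7 in the contrast cells, a ratio of 1.81 (interval 1.76 to 1.86), and at 882 CPM in the 631 cells that had UMIs of both Flt3 and Csf1r, so it was not highest in the selected cells. Spi1, encoding PU.1, stood at 297 against 202 CPM and Zeb2 at 321 against 211 CPM. The immediate early gene Egr1 stood at 6.06 against 32.2 CPM. Id2 stood at 5.65 against 20.2 CPM but at 6.86 CPM in the contrast cells with exclusions (ratio 0.824, interval 0.581 to 1.16). Factors of non-classical monocytes and macrophages such as Nr4a1 (1.95 CPM) and Maf (0.308 CPM) were near the limit of detection.

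Among surface and homing receptors, 5 of the 22 genes measured were at 2-fold or more (Ly6c2, Ccr2, Cd14, Itgb7 and Csf2ra) and 0 lower by 2-fold or more. Another 14 had ratios above 1, and the median log2 ratio was 0.76. Ccr2 stood at 221 CPM (interval 212 to 231) against 67.0, and was seen in 63.4% of thinned selected cells, 24.5% of contrast cells and 3.33% of erythroid cells. Itgb7, an integrin chain of gut homing, stood at 91.8 against 31.6 CPM, and Csf2ra, a chain of the GM-CSF receptor, at 135 against 51.9 CPM. Cd14 was higher by a ratio of 3.47 (interval 2.70 to 4.46) at a low level. Against the contrast cells with exclusions 11 of 21 genes were at 2-fold or more, among them Cx3cr1 (38.4 against 15.7 CPM), the receptor for fractalkine. Itgam did not separate the groups (9.66 against 8.86 CPM, ratio 1.09, interval 0.857 to 1.38). Clec12a and Ifngr1 were lower, with 289 against 318 CPM and 141 against 183 CPM.

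Growth factor receptors gave 2 of 11 genes at 2-fold or more, Il6ra (77.0 against 34.9 CPM) and the Csf2ra named above. Il3ra stood at 54.6 against 31.7 CPM. The receptor for G-CSF, Csf3r, which drives neutrophil formation, stood at 21.4 against 24.6 CPM (ratio 0.868, interval 0.743 to 1.01). Tgfbr1 and Tgfbr2, the receptors for the ligand that induces Tgfbi, stood at 8.53 and 2.98 CPM and were lower than in the contrast cells (11.7 and 6.16 CPM). Their levels were low, and the intervals of the ratios reached 0.924 for Tgfbr1 and 0.715 for Tgfbr2.

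Cytoskeletal and S100 genes formed the list with the most members higher by 2-fold or more. Of 17 measured, 8 were at 2-fold or more, 2 lower by 2-fold or more, and the median log2 ratio was 1.0. With exclusions it was 12 of 16 at 2-fold or more and 1 lower by 2-fold or more. Vim, encoding the intermediate filament vimentin, stood at 1526 CPM (interval 1501 to 1551) against 563. Ahnak stood at 160.5 against 32.7 CPM, Crip1 at 557 against 213, Anxa2 at 352 against 106 and Anxa5 at 258 against 114. Lgals1 and Tmsb10, encoding galectin-1 and thymosin beta-10, stood at 1966 and 1649 CPM with ratios of 1.97 and 1.89.

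Many S100 genes lie on mouse chromosome 3, and those outside the rule differed in direction. S100a4 (90603771 to 90606045, plus strand, 269 against 43.8 CPM) and S100a6 (90612882 to 90624181, plus strand, 397 against 62.2 CPM) were higher in the selected cells, S100a4 because the rule selected on it, and S100a5 between them had 2 UMIs. S100a8 (90668978 to 90670035, plus strand) and S100a9 (90692632 to 90695721, minus strand), the pair that forms calprotectin, were lower, at 11.9 against 267 and 0.616 against 35.6 CPM. Farther along, S100a11 stood at 290.5 against 284 CPM (ratio 1.02, interval 0.982 to 1.07) and S100a10, the partner of annexin A2, at 784 against 242 CPM (ratio 3.24, interval 3.14 to 3.34). In the 811 cells with 3 or more Cebpe UMIs, S100a6 stood at 16.7 CPM and S100a8 and S100a9 at 998 and 182 CPM. Coordinates are those of GENCODE M21 on GRCm38.

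Lysosomal and phagocyte genes gave 5 of 17 at 2-fold or more and 1 lower by 2-fold or more, with a median log2 ratio of 0.72 and 15 genes above a ratio of 1. Besides Lyz2, the higher genes were Psap, the precursor of sphingolipid activator proteins (678 against 216 CPM), the lysosomal membrane gene Lamp1 (531 against 222 CPM), and the cathepsin genes Ctss (124 against 39.4 CPM) and Ctsc (134 against 40.5 CPM). Cathepsin D (Ctsd) and cathepsin L (Ctsl) were nearly level, at 149 against 134 and 24.8 against 26.1 CPM. Cd63, also a neutrophil and basophil granule protein, was the gene lower by 2-fold or more, and stood at 808 CPM in the Cebpe cells. Lyz1, the close copy of Lyz2 in Paneth cells, had 2 UMIs in the selected cells.

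All 6 subunits measured of the phagocyte NADPH oxidase, which makes superoxide against microbes, had ratios above 1. Cybb stood at 152 CPM (interval 144 to 159.7) against 33.8, and Ncf4 at 165 against 71.9. Cyba, the partner of Cybb in the membrane, stood at 690.5 against 373 CPM, and Ncf1 and Rac2 had ratios of 1.46 and 1.16. Cybb differed most between the groups, and was also above its level in Cebpe cells (21.5 CPM), whereas Cyba stood there at 523 CPM.

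The receptor encoded by Trem2 signals through the adaptor DAP12, encoded by Tyrobp. Tyrobp stood at 1296 CPM (interval 1274 to 1319) against 550.1 and Fcer1g, the adaptor of Fc receptors, at 995 against 393. The kinase gene Syk downstream of both stood at 40.0 against 34.7 CPM, Plcg2 at 49.3 against 36.5 and the inhibitory phosphatase gene Inpp5d at 45.1 against 43.6. Lpl, encoding lipoprotein lipase, stood at 22.8 CPM (interval 19.9 to 26.0) against 3.09. Apoe, a ligand of TREM2, was lower, at 24.9 against 61.1 CPM. The other Trem genes did not follow Trem2. Trem1 had 21 UMIs, Trem3 stood at 67.2 against 97.6 CPM and Treml1, a platelet gene, had 5 UMIs. Of 15 genes of this list, 3 were at 2-fold or more and 2 lower by 2-fold or more, with a median log2 ratio of 0.05 and 8 ratios above 1. With exclusions 3 of 13 were higher and 1 lower by 2-fold or more, the median was 0.47 beside -0.02 over all genes, and 10 ratios lay above 1.

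Few secreted products of mature monocytes were present. Of 19 genes for matrix proteins, proteases and chemokines, 10 could be measured, 4 were at 2-fold or more (Chil3, Mmp8, Plaur and Tnf) and 2 lower by 2-fold or more (Timp2 and Ccl4). Chil3, a chitinase-like protein of classical monocytes, stood at 20.5 CPM (interval 17.8 to 23.6) against 1.71, a ratio of 12 (interval 8.99 to 16.2). Mmp8 stood at 8.84 against 1.90 CPM and the urokinase receptor gene Plaur at 21.6 against 8.89 CPM. Il1b and Thbs1 had 0 UMIs, and Ccl9 stood at 83.9 against 98.4 CPM. The matrix and chemokine genes of this list, which leaves out the rule genes, lay under 40 CPM apart from Ccl9. Ccl4 stood at 18.2 against 39.5 CPM, with a ratio of 0.674 with exclusions.

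**Figure D3:**
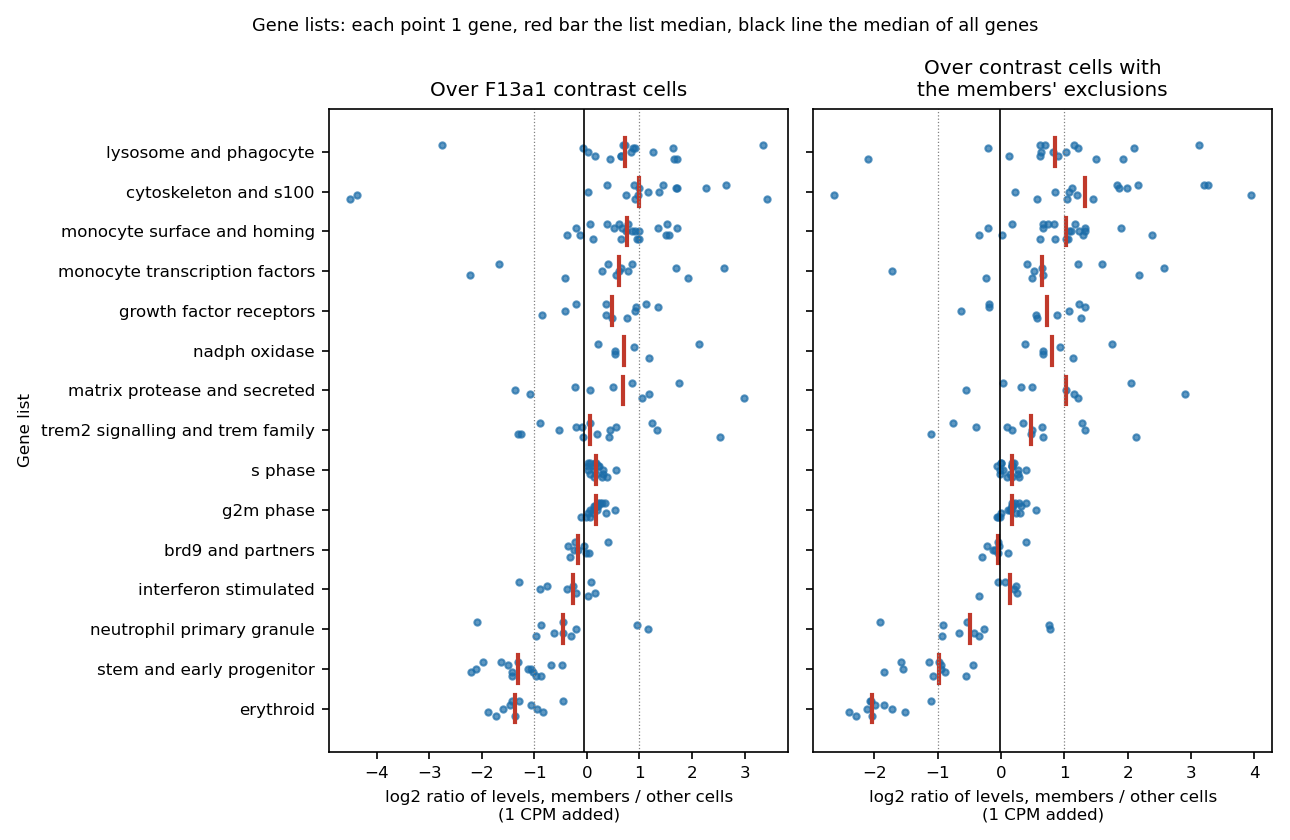
Log2 ratio of the level in the selected cells to that in other cells (1 CPM added) for each measured gene of 15 lists, with the list median in red and the median of all genes as a black line. The left panel is against the contrast cells, the right panel against those with exclusions. Cytoskeletal and lysosomal lists lie to the right of all genes, stem and erythroid lists to the left, and the S and G2/M lists stay within 1 of 0.

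Genes of neutrophil primary granules remained abundant in the selected cells. Prtn3, encoding proteinase 3, stood at 4827 CPM (interval 4784 to 4871) against 5540, Mpo, the myeloperoxidase gene, at 3143 against 4297, Elane, the neutrophil elastase gene, at 3028 against 5551, and Ctsg at 2459 against 3385. They exceeded Lyz2 at 1547 CPM. Levels between genes in 3' counts are not corrected for capture, so this is a statement on counts. Of 10 genes of the list 1 was lower by 2-fold or more (Nkg7), 1 at 2-fold or more (Clec5a, 53.5 against 23.3 CPM) and 8 in all had ratios below 1, with a median log2 ratio of -0.46. With exclusions 0 were at 2-fold or more, and Clec5a had a ratio of 1.74. Hp, the haptoglobin gene, was higher at 448 against 231 CPM. After thinning, 95.5% of the selected cells had an Elane UMI, against 26.7% of erythroid cells, so the median of 12 Elane UMIs in a selected cell lay well above that in erythroid cells, which was 0. Later neutrophil genes were scarce, with Ltf, Chil1, Itgb2l and Retnlg at 0 UMIs, Camp and Ngp at 1 UMI and Gfi1 at 5.65 against 24.9 CPM. Lcn2 stood at 25.2 CPM, with a ratio of 1.25 (interval 1.08 to 1.45), and Cd177 at 6.27 against 0.828 CPM.

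Against the 811 cells with 3 or more Cebpe UMIs, which mark the neutrophil branch, the separation was wider. Here 599 of 9344 genes (6.41%) were at 2-fold or more and 354 (3.79%) lower by 2-fold or more, with a median log2 ratio of 0.10 over all genes. The 6 highest were Klf4 (205 against 5.51 CPM, ratio 37.2, interval 30.5 to 45.9), Ahnak (ratio 35), Lgals3 (ratio 33.8), Pld4 (ratio 26.4), S100a6 (ratio 23.8) and Ccr2 (ratio 21.1). The 6 lowest were the eosinophil granule gene Prg2 (2.98 against 1068 CPM), S100a9, S100a8, Wfdc21, the mast cell protease gene Cpa3 and the peptidoglycan-binding gene Pglyrp1 (11.8 against 334 CPM). Irf8 stood at 742 against 50.9 CPM, a ratio of 14.6 (interval 13.6 to 15.6). Elane and Mpo stood at 12093 and 6857 CPM in the Cebpe cells. This group thus also held transcripts of eosinophils and mast cells. In the selected cells, 5 of 10 primary granule genes were lower by 2-fold or more. Because the rule kept out cells with 3 or more Cebpe UMIs, part of this separation was set by the selection.

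The 631 cells with both Flt3 and Csf1r, a combination of monocyte-dendritic progenitors, were nearer than the Cebpe cells in some lists and farther in others. The median log2 ratio of the transcription factor list was 0.25, beside 0.67 against the Cebpe cells. That of the stem cell list was -1.42, beside -1.26. Flt3 was an exclusion of the rule and 313 of these cells were also contrast cells. Ly6c2 stood at 1876 CPM in the selected cells and 608 CPM in the Flt3 and Csf1r cells (ratio 3.09, interval 3.01 to 3.17), Lyz2 at 1547 and 336 CPM (ratio 4.61, interval 4.46 to 4.76), Lgals3 at 419.9 and 141 CPM, and Klf4 at 205 and 98.7 CPM. Csf1r, on which both groups were selected, stood at 105 and 99.6 CPM. Sox4 stood at 46.9 and 320.3 CPM and Cd74 at 4.21 and 148 CPM. Elane was higher in the selected cells than in these, at 3028 and 1412 CPM, the opposite direction from the Cebpe cells.

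The sort had selected for Kit protein, yet its transcript was low in the selected cells. Kit (ENSMUSG00000005672) stood at 21.0 CPM (interval 18.2 to 24.0) against 67.2 in the contrast cells and 70.4 in erythroid cells. After thinning, 7.67% of the selected cells (interval 5.37 to 10.6) and 28.4% of the contrast cells had a Kit UMI. No cell type of the library that should lack Kit was available as a background, since all cells were sorted on it. Of 15 stem and early progenitor genes 0 were at 2-fold or more and 11 lower by 2-fold or more, all 15 had ratios below 1, and the median log2 ratio was -1.31. With exclusions 5 of 11 were lower by 2-fold or more, with a median of -0.97. Cd34 stood at 93.4 against 150.3 CPM, Myb at 147 against 309 CPM, Myc at 39.4 against 81.6 CPM and Gata2 at 5.34 against 28.4 CPM.

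Cell cycle genes were present and much alike in both groups. Of 18 S phase genes and 18 G2/M genes, 0 passed 2-fold in either direction, with median log2 ratios of 0.17 and 0.18. All 18 S phase genes and 16 of the G2/M genes had ratios above 1. With exclusions 14 of the S phase and 15 of the G2/M genes did, and against the Flt3 and Csf1r cells 8 and 9. Mki67 stood at 336 against 276 CPM, Top2a at 389 against 338 CPM, Pcna at 298 against 257 CPM, and Aurkb had the highest ratio of the G2/M genes described (1.45, interval 1.35 to 1.56). In the Cebpe cells Mki67 stood at 128 CPM and Top2a at 208 CPM, so the selected cells had the higher counts there. After thinning, 67.5% of the selected cells had an Mki67 UMI, against 53.2% of the contrast cells and 77.5% of the erythroid cells.

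Brd9, the gene of the study, stood at 41.4 CPM against 30.8 (ratio 1.34, interval 1.2 to 1.51). None of 9 genes of its complex and partners passed 2-fold. Of these, 7 had ratios below 1, with a median log2 ratio of -0.17 beside -0.05 over all genes. With exclusions the median was -0.04 beside -0.02. Smarca4, the ATPase, stood at 88.8 against 89.8 CPM and Ctcf, the insulator protein, at 155 against 149.9 CPM. Interferon-stimulated genes, of which 17 of 18 were measured in the table, held 0 of 9 genes at 2-fold or more and 1 lower by 2-fold or more, Isg15 (1.85 against 6.02 CPM). Bst2 was the most abundant, at 142 against 163 CPM.

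Transcripts of other lineages in the selected cells were few, and their part in the results was not tested. Basophil and mast cell genes summed to 24.6 CPM over 6 genes, against 323 in the contrast cells and 93.8 with exclusions, with Gzmb at 0. Eosinophil genes summed to 4.73 CPM over 5 genes, against 56.1 and 18.4, with Ear1 at 0. Erythroid genes summed to 289 CPM over 11 genes, against 784 and 1215, and all 11 had UMIs. These were uneven over cells, since after thinning the median selected cell had 0 UMIs of them and the highest cell 85. Megakaryocyte genes summed to 69.4 CPM over 6 genes, of which Pf4 made 58.5, against 148 and 200.4, and the highest cell had 81. Dendritic genes other than the excluded H2-Aa summed to 319.6 CPM over 16 genes, against 384 and 215, most of it from H2-DMa (184 CPM), while Siglech stood at 0.616 and Ciita at 0. Cd74 stood at 4.21 against 59.2 CPM, a ratio of 0.0711, which turned to 1.64 (interval 1.02 to 2.64) against the 2.57 CPM of the contrast cells with exclusions. Macrophage genes summed to 20.9 CPM over 14 genes, of which 7 were at 0 and Adgre1, encoding F4/80, stood at 9.66 against 2.32 CPM. B lineage genes summed to 52.7 CPM over 8 genes, against 43.0 and 40.6, and T and NK genes to 109 CPM, nearly all from Nkg7, which granulocyte progenitors share, against 470.3 and 413. The haemoglobin genes Hba-a1 and Hba-a2, and Hbb-bs and Hbb-bt, are close copies whose counts cannot be fully told apart.

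Single cells of the selected and the contrast group overlapped in each gene given here. Thinned to 5000 UMIs, a selected cell had a median of 5 Lyz2 UMIs (quartiles 2 and 11, highest 72), and a contrast cell a median of 0 (quartiles 0 and 1, highest 12). Lyz2 reached 32 or more UMIs in 3.61% of the selected cells and was absent from 10.2%. Ly6c2 had a median of 9 UMIs (quartiles 6 and 13) against 2 (quartiles 0 and 5). For Vim the medians were 7 and 2, for Tyrobp 6 and 2, for Irf8 3 and 1, and for Lgals3 2 and 0. Elane ran from 0 to 89 UMIs in the selected cells, with quartiles of 6 and 21, and from 0 to 160 in the contrast cells, with quartiles of 1 and 47. The selected cells thus filled a narrower range of Elane counts within that of the contrast cells. Prtn3 had a median of 23 UMIs in the selected and 23.5 in the contrast cells, and Mpo 14 and 22.

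**Figure D4:**
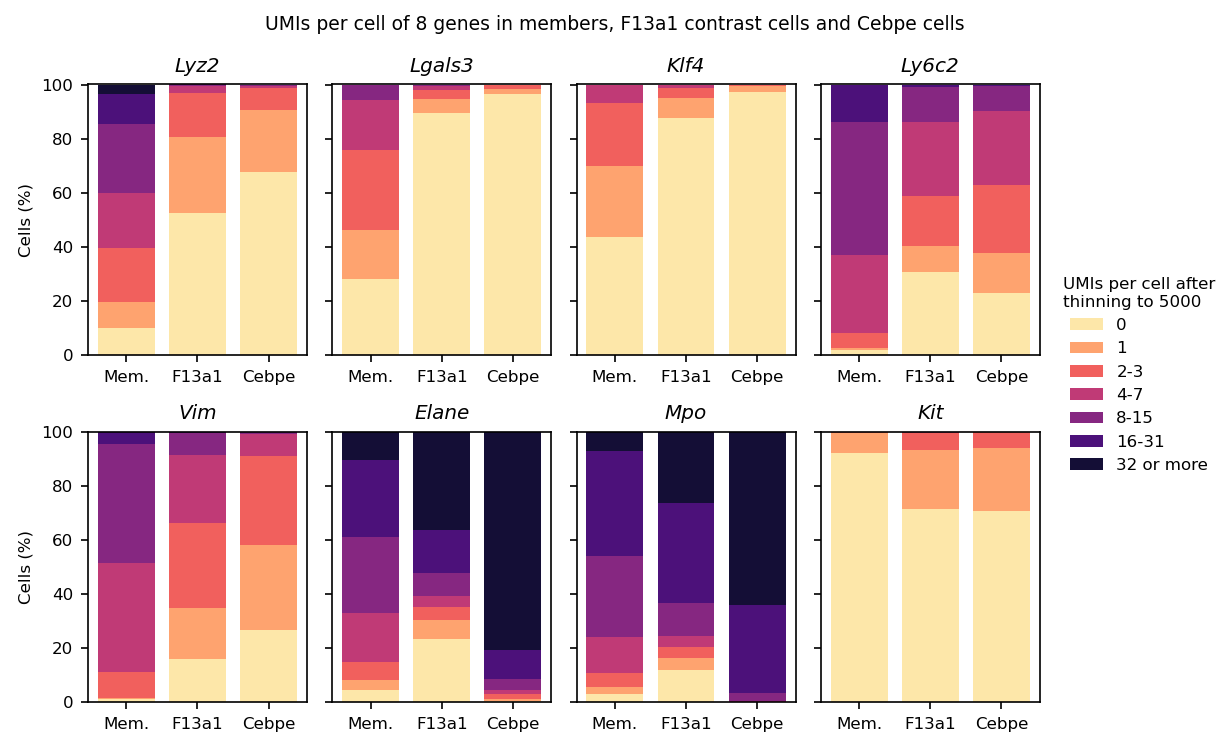
Share of cells (percent) by UMIs per cell after thinning each cell to 5000 UMIs, for 8 genes in the selected cells (Mem.), the contrast cells (F13a1) and the cells with 3 or more Cebpe UMIs (Cebpe). Lyz2, Lgals3 and Klf4 are absent from 10.2%, 28.0% and 43.8% of the selected cells and from more of the others, and Elane and Mpo counts are highest in the Cebpe cells.

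The selected cells varied along the number of rule genes they carried. Depth did not differ with it, at a median of 21339, 21119 and 20818 UMIs in the 191, 183 and 69 cells with 3, 4 and 5 of the genes, and the doublet calls were 4.71%, 3.83% and 0%. Lyz2 stood at 834 CPM, 1551 CPM and 3636 CPM in these. Lgals3 stood at 260.4, 446 and 818 CPM, S100a6 at 245, 421 and 774 CPM, and Klf4 at 163, 199 and 344 CPM. Cells with more of the genes had lower counts of Elane (3434, 3000 and 1910 CPM), Mpo (3772, 2983 and 1730 CPM) and Ms4a3 (482, 410.1 and 248 CPM). Prtn3 and Ctsg differed less, with ratios of 0.808 (interval 0.785 to 0.831) and 0.823 (interval 0.791 to 0.857) between cells with 5 and with 3. Kit stood at 26.9, 20.5 and 4.81 CPM. Mki67 was 1.87 times higher with 5 than with 3 genes (548 and 292 CPM), and Top2a 1.67 times, whereas Pcna (ratio 1.07, interval 0.963 to 1.2) and Mcm2 (ratio 0.958, interval 0.785 to 1.16) were level. Lists of other lineages differed unevenly. The B lineage list was higher in cells with 5 than with 3 genes (ratio 1.56, interval 1.23 to 1.97). The dendritic list was level (ratio 1.04, interval 0.939 to 1.16), and the intervals of the basophil, eosinophil and macrophage lists also held 1. The erythroid list had a ratio of 0.185 (interval 0.151 to 0.225) between cells with 5 and with 3, and the megakaryocyte list 0.0631 (interval 0.0324 to 0.111). Pf4 stood at 113, 19.0 and 7.56 CPM and Hbb-bs at 111, 31 and 17.9 CPM. The megakaryocyte UMIs were uneven over cells, with 81 in the highest selected cell after thinning and a mean of 0.341, so single cells weigh on that ratio. The part of other-lineage transcripts in the other ratios was not tested. The number of genes seen is a measure from the same cells, so these values describe how genes go together.

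The selected cells were also split by Kit, which the rule did not use. Kit was seen in 131 of them (29.6%) and not in 312, with median depths of 24440 and 20394 UMIs and doublet calls of 6.87% and 2.24%. Where Kit was not seen, Lyz2 stood at 1915 CPM against 831 CPM where it was (ratio 2.30, interval 2.21 to 2.4), Lgals3 at 529 against 208 CPM, S100a6 at 499 against 198 CPM and Ahnak at 199 against 85.6 CPM. Elane stood at 2739 against 3589 CPM, Mpo at 2742 against 3922 CPM and Sox4 at 35.9 against 68.1 CPM. The platelet gene Pf4 stood at 5.91 against 161 CPM, and the megakaryocyte list had a ratio of 0.0456 (interval 0.0340 to 0.0601). That interval does not cover how unevenly these UMIs fell over cells. After thinning, the highest selected cell held 81 UMIs of the list, beside a mean of 0.341 per cell. Red cell genes were divided here. Hbb-bs stood at 86.7 against 21.2 CPM, and the erythroid list had a ratio of 1.37 (interval 1.26 to 1.49), the other way than with the number of rule genes. Car1 (ratio 0.613, interval 0.535 to 0.703) and Car2 (ratio 0.520, interval 0.461 to 0.586) were lower, the same way as with the number of rule genes. Since 1 UMI of Kit is more easily seen in a deeper cell, the split also follows depth, and the part of depth, of doublets and of other-lineage transcripts in these ratios was not tested. The 129 cells with Fn1 had Lyz2 at 2491 CPM and those without at 1184 CPM, with S100a8 at 22.9 and 7.68 CPM. Their median depths were 20818 and 21418 UMIs and their doublet calls 1.55% and 4.46%. Between them the erythroid list had a ratio of 0.431 (interval 0.387 to 0.479) and the megakaryocyte list 1.68 (interval 1.44 to 1.97).

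**Figure D5:**
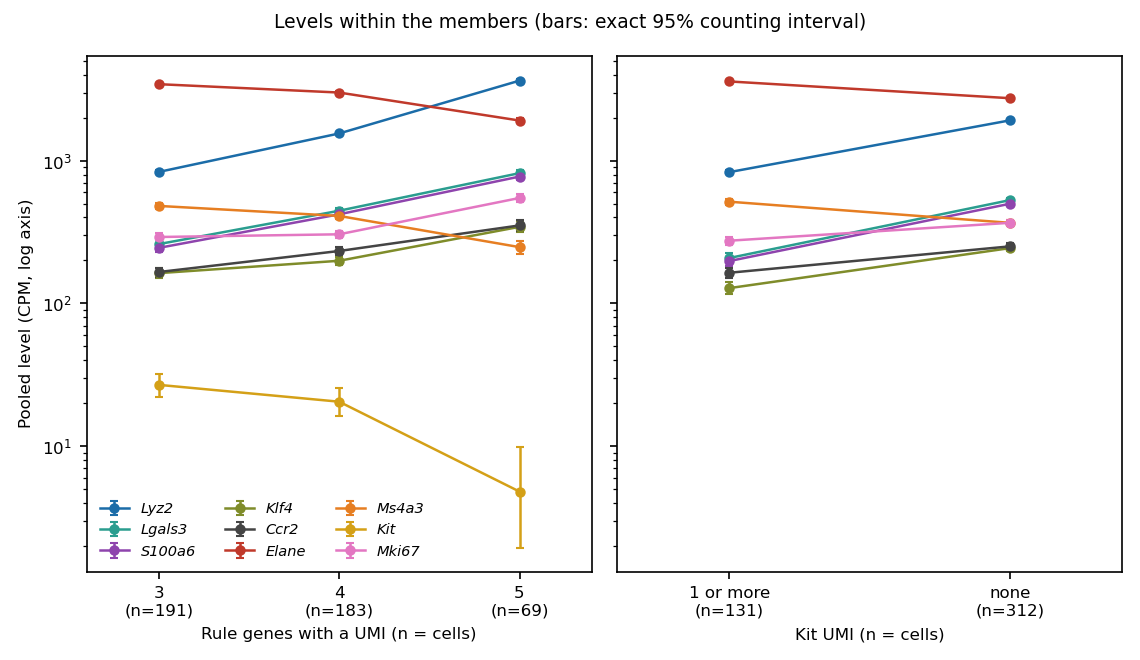
Pooled level in CPM (log axis) with exact 95% counting intervals of 9 genes within the selected cells, by the number of rule genes with a UMI (left) and of 8 of them by whether a Kit UMI was seen (right). Lyz2, Lgals3, S100a6, Klf4, Ccr2 and Mki67 are higher, and Elane, Ms4a3 and Kit lower, in cells with more rule genes.

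Across the 443 selected cells, thinned to the same depth, the summed UMIs of the lysosomal list and of the cytoskeletal list went together (Spearman rho 0.72). The lysosomal sum ran against that of the primary granule genes (rho -0.29) and of the stem cell genes (rho -0.34), and was unrelated to that of the S phase genes (rho 0.05). S phase and G2/M sums ran against each other (rho -0.39). Lysosomal and cytoskeletal sums also ran against the total UMIs of the cell before thinning (rho -0.39 and -0.43). These points share 1 library and a fixed total of UMIs per cell, within which a gene that takes more leaves less to others, and they are given as a description.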

How the data were processed

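Per the labels, the authors made UMI counts per gene and barcode with Cell Ranger 6.0.2 on build mm10, from 1 library, and deposited them before filtering, as whole numbers that are not normalized. The study's methods give the 10x mouse transcriptome for mm10. The study's cell filter was applied here (between 1000 and 50000 UMIs, between 1000 and 6500 genes, and a mitochondrial share below 7%). Scrublet, as held in scanpy 1.11.5, called doublets (expected rate 6%), which were kept, since the study names no removal, then removed in an alternative. Pooled levels, exact intervals and ratios were computed with scipy 1.17.1 and checked on simulated data. No count model was fitted, because there is 1 sample. Genes needed 100 UMIs over both groups. Erythroid cells and other groups were set by the UMIs of their genes.

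The members of the group, the 23 gene lists and the comparisons were chosen with earlier results of these data known. Named genes were the 12 highest and the 12 lowest ratios among genes at 100 CPM or more in the higher group, 6 each way against the Cebpe cells, and genes of the lists, by role. Where the text singles out other genes, they were taken from the lists after their values were seen. Of 326 gene names, 325 matched GENCODE M21, and all 4 promoters matched RefSeq. In all, 12 alternatives were run, 1 of them, without the Prss34 exclusion, added after seeing the data.

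Results for some items are not reported here.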

Additional observations from a re-analysis of the deposited data

Results flagged for a closer look

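Of the 1172 barcodes that the cell filter removed, 8 (0.683%, exact 95% interval 0.295 to 1.34) met the gene rule of the selected cells, a signal outside the cells compared. Their median was 47621 UMIs. The mitochondrial limit failed 2 of them and an upper limit on UMIs or genes the other 6.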

How the results depend on the processing

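Of 2871 values of single genes under 12 alternatives, 2123 stayed within the counting interval of the reported ratio and 747 moved outside it. Another 1 was counted as reversed, Cd74 (1.64 against the contrast cells with exclusions). Ratios near 1 also crossed it outside this count. All 18 S phase genes lay above 1 against the contrast cells, but 14 above and 4 below against those with exclusions. The number of selected cells was 737 with 2 or more of the genes, 252 with 4 or more, 172 with the rule on thinned counts (125 of them shared) and 281 without S100a4. With 2 or more genes, 218 genes were lower by 2-fold or more, with lists at 1 transcription factor lower, 2 matrix genes higher, 0 matrix genes lower and 1 stem cell gene lower. With 4 or more, 9 surface genes and 2 granule genes were higher and 3 granule genes lower. The rule on thinned counts gave 1 matrix gene lower, 0 granule genes higher and 3 lower. Levels from thinned counts gave 153 genes higher and 238 lower, with 0 matrix genes higher, 1 matrix gene lower and 2 granule genes lower. The contrast cells with exclusions gave 261 genes lower, 1 transcription factor lower, 11 surface genes higher, 0 matrix genes lower, 1 cytoskeletal gene lower, 0 granule genes higher and 5 stem cell genes lower. The stricter cell filter gave 1 matrix gene and 2 granule genes lower. Totals without mitochondrial, ribosomal protein and haemoglobin UMIs, and means of per-cell levels, each gave 2 granule genes lower. Without S100a4, 9 surface and 2 granule genes were higher and 2 granule genes lower. The causes were not tested. Between 168 and 245 of the 245 higher genes, and between 209 and 444 of the 444 lower genes, kept their side of 2-fold. Of the 444, 8 were higher by 2-fold or more with 2 or more rule genes, 4 with the rule on thinned counts and 4 against the contrast cells with exclusions, and 0 of the 245 were lower by as much in any alternative. Leaving out the Prss34 exclusion, chosen after seeing the data, gave 523 cells. No paired analysis was possible because there is 1 library with no partner, and no replicate could be left out. Depth limits genes under about 100 UMIs.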
